A study of Mus musculus with 4 samples.

Results

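The apolipoprotein genes are 9 genes, Apoa1, Apoa2, Apoa4, Apob, Apoc1, Apoc2, Apoc3, Apod and Apoe, of 18193 genes read on the arrays. They were taken by exact gene symbol in the platform annotation, which gave 15 probe sets, and where a gene had several the brightest on average was used. The family was selected on earlier readings of these arrays, in which Apoa1, Apoa4 and Apoc2 differed from vehicle, so those differences are a description. Expression was measured in gastric corpus epithelium of wild-type mice with 1 Affymetrix array for each of 4 conditions, and each array held RNA pooled from 3 mice. The groups were tamoxifen after 12 hours, tamoxifen after 2.5 days, tamoxifen after 4.5 days, and vehicle at 2.5 days. Tamoxifen, a selective estrogen receptor modulator, was given into the peritoneum at 5 mg per 20 g of body weight in 10% ethanol and 90% sunflower oil on 1 or 3 days, a course not tied to an array by the labels. The vehicle array is shared by all 3 comparisons and matches the time of the second. The mice were 6 weeks old and came from the C57BL/6, BALB/c and FVB/N strains, also without a link to an array. The series set out to follow SPEM, a metaplasia in which corpus glands take on features of mucous neck cells. With 1 array a group no test over samples was possible, so no p-value is given and every difference describes these pools.

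Apolipoproteins are the lipid-binding proteins of lipoprotein particles, which carry triglyceride and cholesterol through blood and lymph. APOB is the scaffold of the particles that liver and intestine secrete, APOA1 is the main protein of high-density lipoprotein, and APOE and the small APOC proteins move between particles and direct their uptake and lipolysis. Liver and small intestine are the best known sources, whereas APOE also comes from macrophages and APOD, a lipocalin, from many stromal and glial cells.

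By the RefSeq gene order (GRCm38.p6), Apoa1, Apoc3, Apoa4 and Apoa5 lie next to each other on chromosome 9, and Apoc2, Apoc4, Apoc1 and Apoe on chromosome 7, with no other protein-coding gene inside either row. The windows around the annotated starts of Apoa1, Apoa4 and Apoc2 are shown because these 3 genes differed from vehicle by 2-fold or more. Each runs from 250 bases before to 50 bases after the start, on the gene's own strand, and is taken from RefSeq. Apoa1 is at chr9:46228380-46228679 on the plus strand, Apoa4 at chr9:46240594-46240893 on the plus strand, and Apoc2 at chr7:19677892-19678191 on the minus strand. Capitals mark matches to 5 motifs searched on both strands, namely the TATA box as TATAAA, a core found in many HNF4 sites as CAAAGT, the nuclear receptor site as AGGTCA, and direct repeats of a looser form of that site. The shorter repeat was searched as TGANCNNTGANC. The longer repeat was searched as TGANCNNNTGANC.
Apoa1: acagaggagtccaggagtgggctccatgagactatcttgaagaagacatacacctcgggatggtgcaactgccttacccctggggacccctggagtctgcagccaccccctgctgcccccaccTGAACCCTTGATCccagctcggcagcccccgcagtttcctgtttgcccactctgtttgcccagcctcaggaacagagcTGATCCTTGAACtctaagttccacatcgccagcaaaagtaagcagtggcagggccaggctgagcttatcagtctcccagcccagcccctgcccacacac
Apoa4: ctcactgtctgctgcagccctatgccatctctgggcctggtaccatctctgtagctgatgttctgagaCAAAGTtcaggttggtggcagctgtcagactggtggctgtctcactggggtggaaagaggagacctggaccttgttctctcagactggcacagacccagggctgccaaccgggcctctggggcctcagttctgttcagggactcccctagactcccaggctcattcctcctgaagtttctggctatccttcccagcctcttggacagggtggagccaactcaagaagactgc
Apoc2: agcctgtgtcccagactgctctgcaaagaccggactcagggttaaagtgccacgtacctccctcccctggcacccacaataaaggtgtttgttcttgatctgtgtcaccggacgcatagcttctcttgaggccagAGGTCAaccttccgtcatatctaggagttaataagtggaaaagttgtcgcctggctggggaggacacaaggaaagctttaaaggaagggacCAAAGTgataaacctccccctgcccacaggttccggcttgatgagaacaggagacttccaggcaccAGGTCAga
The Apoa1 window held a match to each direct repeat, TGAACCCTTGATC starting at position -127 and TGATCCTTGAAC at position -49 relative to the start. Among 32851 windows of 300 bases, 1.26% held the shorter repeat and 1.12% the longer. The Apoa4 window held CAAAGT at position -182, a motif found in 14.4% of windows. The Apoc2 window held CAAAGT at position -24 and AGGTCA, found in 16.3% of windows, at positions -115 and 43. TATAAA, found in 13.6% of windows, was in none of these 3 windows. In all, 7 of the 9 genes had a window, and no window held more than 3 matches. A match is a string of letters and no measure of binding. The motifs and their letters were chosen after the data had been seen, so nothing is read from the matches against the shares of windows.

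Levels are log2 RMA values, so a difference of 1 is 2-fold. A gene was counted as expressed in a comparison if the brighter of its 2 arrays reached the array median of all probe sets, which lay between 5.30 and 5.34. Against vehicle, 18 hybridisation control probe sets differed with an SD of 0.10 at 12 hours, 0.08 at 2.5 days and 0.08 at 4.5 days. Their mean differences were 0.04, -0.13 and -0.16. Poly-A control probe sets that reached the array median spread more widely, with SDs of 0.19, 0.11 and 0.21. The largest poly-A differences in size were 0.64, 0.28 and 0.72. On the 12-hour array all 8 pancreatic acinar genes read were at least 2-fold higher than vehicle (median difference 7.21). There 7 of 9 squamous genes were at least 2-fold lower (median -4.95) and 1, Sprr1a, that far higher, at 1.14. The mean squamous level was 5.79, 9.12 and 9.21 after tamoxifen, against 9.29 in vehicle. Squamous genes were thus bright in vehicle and on both later arrays. At 2.5 and 4.5 days the acinar medians were -0.33 and -0.47 and the squamous medians -0.54 and -0.37. For that reason each result is given by array, and the later arrays give it without the 12-hour one. Whether the pancreatic and squamous shares bear on any apolipoprotein value was not tested.

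Apoa1 and Apoa4 were at least 2-fold lower than vehicle at all 3 times and by every probe set. The smallest difference was that of Apoa1 at 12 hours, at -1.10. Apoc2 was higher at 4.5 days, Apob lay below vehicle and Apod above it by less than 2-fold at each time, and Apoe lay above it by less than 2-fold at 2.5 and 4.5 days. Apoa2 and Apoc3 were below the array median throughout, and Apoc1 on all arrays but the one at 4.5 days. Of the 9 genes, 6 were expressed in the 12-hour comparison, 6 at 2.5 days and 7 at 4.5 days. At least 2-fold lower were Apoa1 and Apoa4 in each comparison. This stands beside 1.92%, 1.94% and 2.72% of expressed genes in the 3 comparisons, by time. At least 2-fold higher was Apoc2 alone, at 4.5 days, beside 3.8% of expressed genes there. The shares of expressed genes at least 2-fold higher were 0.996% at 12 hours and 3.32% at 2.5 days, where no member was. Because the 9 genes were chosen with these differences known, nothing is read from their counts against those shares. Over all 9 genes the median difference was -0.24, -0.16 and -0.08 at 12 hours, 2.5 and 4.5 days, beside -0.04, 0.02 and -0.01 over expressed genes.

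**Figure D1:**
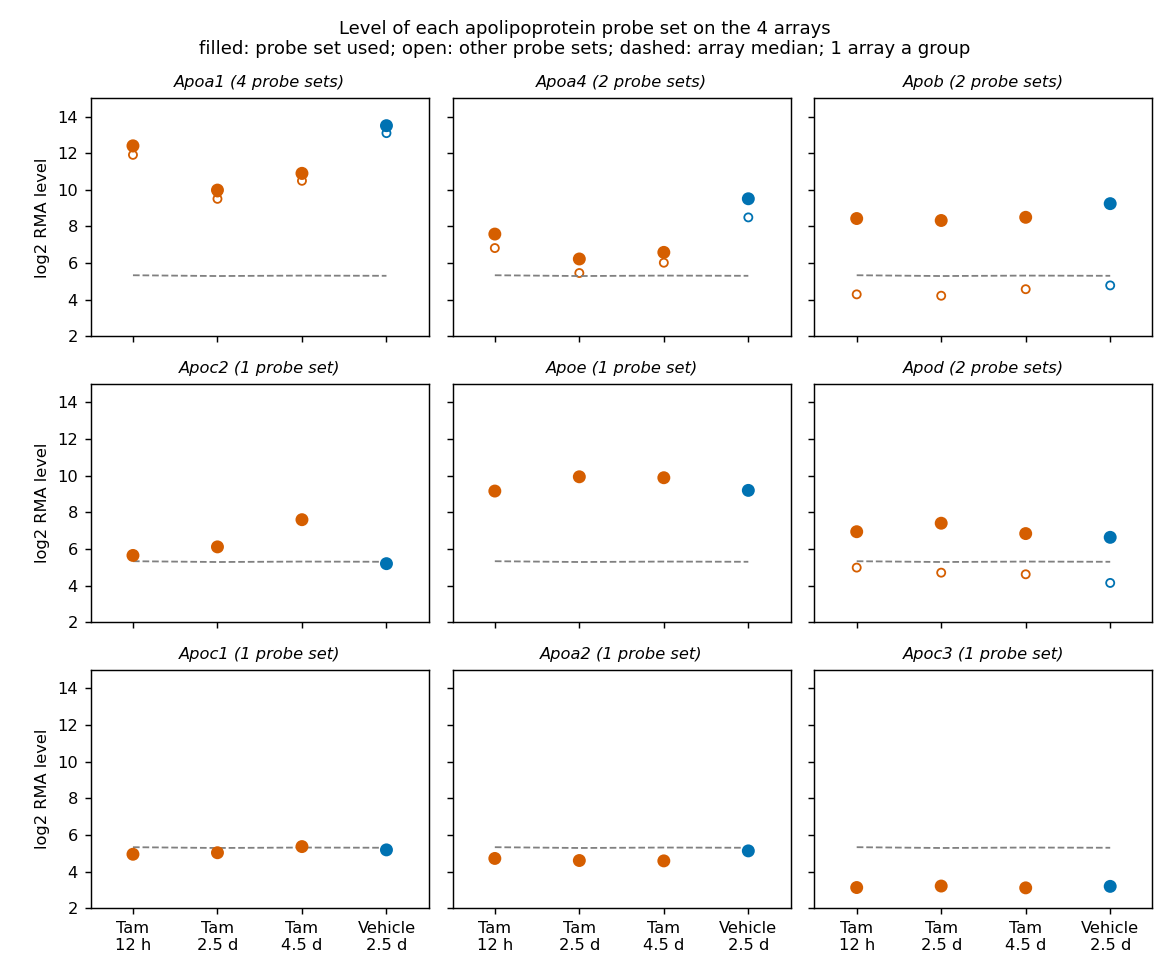
Log2 RMA level (vertical axis) of every probe set of the 9 genes on the 3 tamoxifen arrays (orange) and the vehicle array (blue), 1 point per array. Filled points are the probe set used, open points the others, and the dashed line is the array median. Apoa1 and Apoa4 are lowest at 2.5 days and highest in vehicle, Apoc2 is highest at 4.5 days, and Apoa2 and Apoc3 stay below the dashed line.

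Apoa1 encodes the protein that forms high-density lipoprotein and activates the cholesterol-esterifying enzyme LCAT. Its level was 12.40 at 12 hours, 9.99 at 2.5 days and 10.90 at 4.5 days after tamoxifen, against 13.50 in vehicle. The vehicle array was the highest and the 2.5-day array the lowest. The differences of -1.10, -3.51 and -2.60 correspond to levels 2.14-fold, 11.4-fold and 6.07-fold lower than vehicle. Ordered from the largest decrease, Apoa1 had rank 203 of 12253 expressed genes at 12 hours, rank 6 of 12295 at 2.5 days and rank 25 of 12303 at 4.5 days. All 4 probe sets of Apoa1 lay within -1.18 to -1.10 at 12 hours, -3.59 to -3.51 at 2.5 days and -2.60 at 4.5 days. By Affymetrix naming 3 of them, marked x, can share probes with other sequences, and the other, which is not so marked, gave -1.18, -3.59 and -2.60. Fewer cells that make a transcript and less transcript per cell cannot be told apart in pooled tissue RNA.

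Apoa4 encodes a protein of intestinal lipoproteins that is known to follow fat intake in mice. Its level was 7.59 at 12 hours, 6.23 at 2.5 days and 6.59 at 4.5 days after tamoxifen, against 9.51 in vehicle. The order of the arrays was the same as for Apoa1. The differences were -1.93, -3.28 and -2.92, or 3.80-fold, 9.75-fold and 7.59-fold lower than vehicle, with ranks 72, 8 and 16 from the largest decrease. The other probe set of Apoa4 gave -1.67, -3.03 and -2.47, with levels of 6.82, 5.46 and 6.02 after tamoxifen, against 8.50 in vehicle. At 12 hours both probe sets of Apoa4 were further below vehicle than any of the 4 of Apoa1, and at 2.5 days all 4 of Apoa1 were further below it. No test of that difference was possible.

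Apoc3, which lies between the genes of this pair, encodes an inhibitor of lipoprotein lipase. Its level was 3.14, 3.22 and 3.12 after tamoxifen, against 3.20 in vehicle, and all 4 values were more than 2 log2 units below the array medians. Apoa5, at the other end of the row, was at 4.93, 4.48 and 4.83 after tamoxifen, against 4.86 in vehicle, below the median on all arrays. Of the 5 nearest named genes measured on each side, 9 of 10 were expressed in a comparison with vehicle and 0 were past 2-fold. The largest of these differences was -0.71, for Sik3 at 12 hours.

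**Figure D2:**
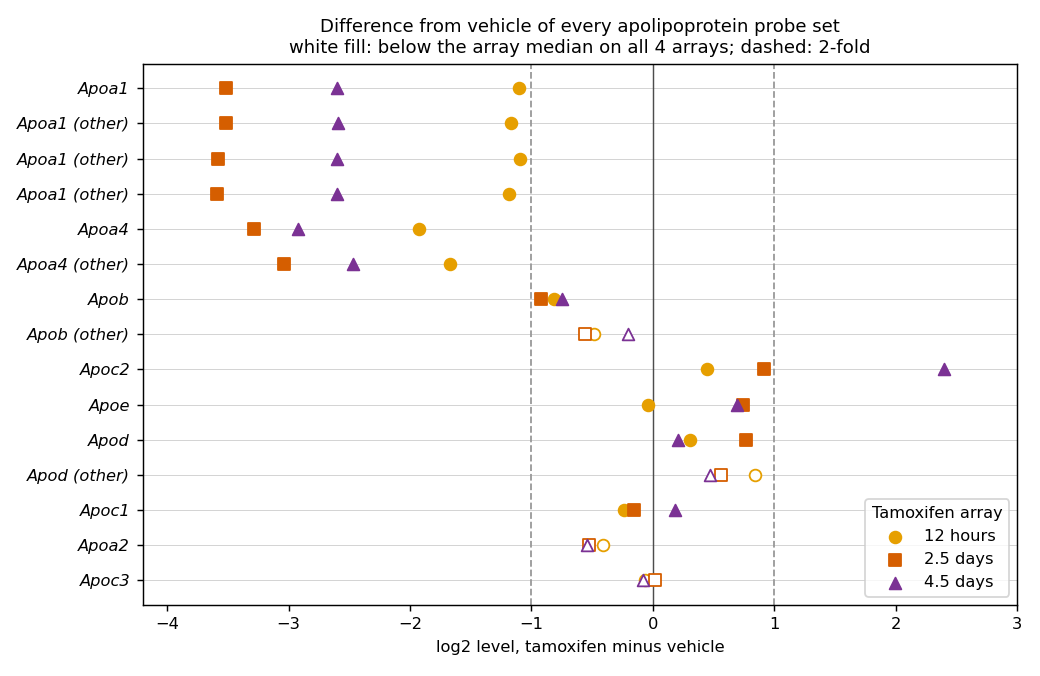
Difference in log2 level from vehicle (horizontal axis) for each of the 15 probe sets, at 12 hours (circles), 2.5 days (squares) and 4.5 days (triangles). White symbols are probe sets below the array median on all 4 arrays and dashed lines mark 2-fold. All 6 probe sets of Apoa1 and Apoa4 lie left of the 2-fold line at every time, and Apoc2 lies right of it at 4.5 days.

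Apoc2 encodes the cofactor that lipoprotein lipase needs to release fatty acids from circulating triglyceride. Its level was 5.66 at 12 hours, 6.12 at 2.5 days and 7.61 at 4.5 days after tamoxifen, against 5.21 in vehicle, and the vehicle value was under its array's median. The 3 tamoxifen arrays all lay above vehicle and the last was the highest. The differences were 0.45, 0.92 and 2.40, the last 5.28-fold higher and at rank 19 from the largest increase among 12303 expressed genes. Apoc2 had 1 probe set, so no other reading of the gene was at hand.

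None of the other genes of the chromosome 7 row was past 2-fold from vehicle. Apoc1 and Apoc4 lay near or below the array median, where a shared pattern may not be seen. Apoe encodes the ligand through which remnant particles are taken up by receptors of the low-density lipoprotein receptor family. Its level was 9.17, 9.95 and 9.90 after tamoxifen, against 9.20 in vehicle, with differences of -0.04, 0.74 and 0.69. The 12-hour array was thus level with vehicle and the later arrays were higher, by 1.67-fold and 1.61-fold. Apoc1, which encodes a small exchangeable apolipoprotein, was at 4.95, 5.04 and 5.37 after tamoxifen, against 5.19 in vehicle. Like Apoc2 it was highest at 4.5 days, where alone it reached the array median. Its step from 2.5 to 4.5 days was 0.34, at rank 400 of 12117 from the largest increase. Apoc4 was at 4.86, 4.67 and 4.86 after tamoxifen, against 4.98 in vehicle, below the median on all 4 arrays. Of the 10 flanking genes here, Relb and Bcl3, which act in NF-kB signalling, were past 2-fold higher. Relb differed by 1.53 at 12 hours and Bcl3 by 1.04 at 2.5 days and 1.55 at 4.5 days.

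Because Apoe is abundant in macrophages, its values stand beside the macrophage markers. All 10 were measured and none was below the array median on any array. Their mean level was 8.29, 8.85 and 8.75 after tamoxifen, against 8.02 in vehicle, and 7, 10 and 10 of them lay above vehicle. At least 2-fold higher were 1, 5 and 2 of the 10, among them Cd68 at 1.55 and C1qc at 1.11 at 2.5 days and the lysozyme gene Lyz2 at 1.38 at 4.5 days. The receptor gene Csf1r differed by -0.26, 0.02 and 0.27 and Adgre1, the F4/80 antigen gene, by -0.36, 0.04 and 0.20. The part of these cells in the Apoe values was not tested.

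Apob encodes the scaffold protein of intestinal and hepatic particles. Its level was 8.43, 8.33 and 8.50 after tamoxifen, against 9.25 in vehicle. The 3 tamoxifen arrays lay close together, all below vehicle, with differences of -0.81, -0.92 and -0.75. The other probe set of Apob was below the array median on all arrays and gave -0.49, -0.56 and -0.21. Apod was at 6.95, 7.41 and 6.85 after tamoxifen, against 6.64 in vehicle, and its differences were 0.31, 0.77 and 0.21. Its other probe set, also below the median throughout, gave 0.84, 0.56 and 0.47. The fibroblast list, a known source of Apod, had medians of -0.25, 0.01 and 0.16, and the list of Schwann cell and glia genes 0.00, -0.04 and -0.36. Apoa2, a second protein of high-density lipoprotein, was at 4.73, 4.61 and 4.59 after tamoxifen, against 5.14 in vehicle, below the median on all 4 arrays.

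**Figure D3:**
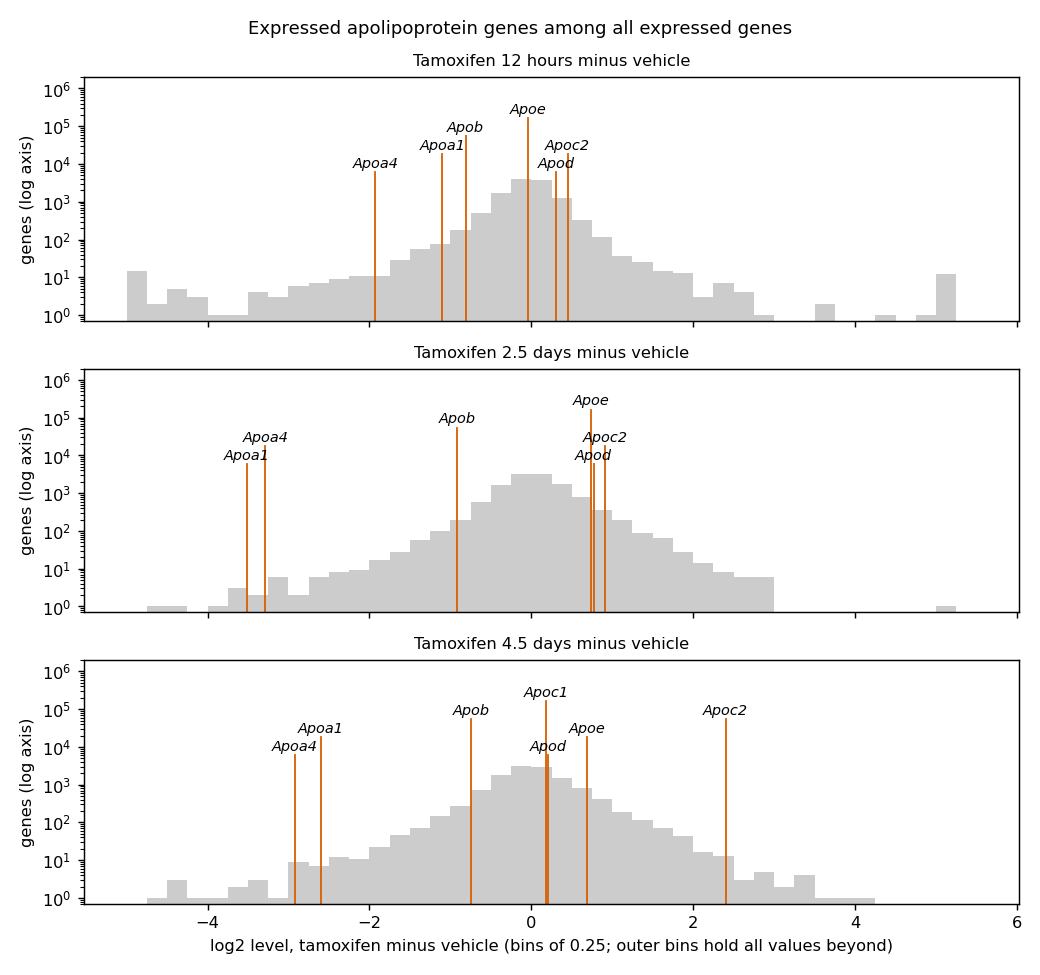
Number of expressed genes (vertical log axis) by difference in log2 level from vehicle (horizontal axis, bins of 0.25) for the tamoxifen arrays at each of the 3 times, with orange lines at the apolipoprotein genes expressed in that comparison, whose heights only separate the labels. Apoa1 and Apoa4 stand in the far left tail at 2.5 days, at -3.51 and -3.28, and Apoc2 in the right tail at 4.5 days, at 2.40.

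The steps between tamoxifen arrays do not use the vehicle array. Between 12 hours and 2.5 days, Apoa1 differed by -2.42 and Apoa4 by -1.36, both past 2-fold, beside 0.655% of expressed genes as far lower and 2.58% as far higher in that step. Apoe differed by 0.78 and Apoc2 by 0.47 there. This step does use the 12-hour array, and all 8 acinar genes were at least 2-fold lower in it (median -7.40). Of 9 squamous genes 8 were that far higher (median 4.06). The shares of expressed genes in this step include these genes. Between 2.5 and 4.5 days the overall differences were small, their robust SD being 0.15 among expressed genes, and 0.248% of them past 2-fold higher and 0.182% past it in the other direction. Apoc2 was among these, with a difference of 1.48 and rank 8 of 12117. Apoa1 was 0.91 higher on the 4.5-day array than on the 2.5-day array, with 0.91 to 0.98 over its 4 probe sets and rank 36. Apoa4 differed by 0.36, with 0.56 by its other probe set. Apod was lower by its brighter probe set, at -0.56, and its dimmer one gave -0.09.

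Liver and small intestine make most circulating apolipoproteins, so the markers of their cells were read on the same arrays. Of 10 hepatocyte genes, 6 were below the array median on all arrays, including the albumin gene Alb, at 5.00, 4.54 and 5.21 after tamoxifen and 4.92 in vehicle, and the fibrinogen genes Fga and Fgb. Of 12 enterocyte genes, 6 were below it on all arrays, including the lactase gene Lct and the intestinal transcription factor gene Cdx1. The mean level of the hepatocyte list was 5.35, 5.49 and 5.14 after tamoxifen, against 5.74 in vehicle, and that of the enterocyte list 5.92, 5.80 and 5.76, against 5.96. Other genes of both lists were bright in vehicle, among them the transthyretin gene Ttr at 12.53, the haptoglobin gene Hp at 8.31, Fabp2 at 10.11 and the villin gene Vil1 at 9.05. Ttr was lower than vehicle at all 3 times, by -1.54, -2.01 and -2.40, and Fabp2 by -0.16, -1.18 and -1.20, whereas Vil1 differed by -0.23, -0.25 and 0.12. Of 10 parietal cell genes 7 were at least 2-fold lower at each time, with medians of -1.44, -1.28 and -1.12. Of 8 chief cell genes 2, 4 and 5 were that far lower and 0, 1 and 1 that far higher, with medians of -0.19, -0.95 and -2.17. Of 6 mucous neck cell genes 0, 3 and 4 were that far higher and 1, 0 and 0 that far lower. Their medians were -0.15, 0.86 and 1.45, but the brightest of them, Tff2, differed by -0.09, -0.24 and -0.06. Muc6, also on that list, was not read. Of 6 surface mucous cell genes 0 were past 2-fold, with medians of 0.02, 0.02 and 0.04. Smooth muscle genes, with a mean level of 11.77 in vehicle, had medians of -0.39, -0.69 and -0.69, so the pools were not epithelium alone. The part of any of these cells in the apolipoprotein values was not tested.

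The closest patterns to Apoa1 and Apoa4 were sought among 11746 genes expressed in all 3 comparisons, by the Euclidean distance over the 3 differences from vehicle. These differences share the vehicle array. The nearest gene to Apoa4 was Rdh7, a retinol dehydrogenase gene, at a distance of 0.15, with differences of -1.94, -3.20 and -2.80. Next came the growth factor gene Egf at 0.73, above the array median on 2 of 4 arrays, and Gpr155 at 0.75. The nearest to Apoa1 were Cox7a1, a subunit gene of cytochrome oxidase, at 0.90, Apoa4 at 0.92 and Rdh7 at 0.92. Without the 12-hour array, 2 of the 3 nearest genes were the same for each, and Apoa1 was then the second nearest to Apoa4 at 0.40. For Apoc2, a search added after its values were seen gave the mast cell protease gene Mcpt2 at 0.17, the matrix protease gene Mmp10 at 0.53 and the prostaglandin synthase gene Ptgs2 at 0.54. Mcpt2 differed from vehicle by 0.35, 0.78 and 2.37. Ptgs2 differed by 0.60, 1.29 and 2.04, but its other probe set, below the median on all arrays, gave 0.39, 0.22 and 0.39.

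Genes whose proteins act on apolipoprotein particles gave mixed differences. In the list of high-density lipoprotein, lipase and lipid transfer genes, 12 of 14 were read and their medians were -0.05, -0.21 and -0.10. Lpl, the triglyceride lipase that APOC2 activates, was at 11.20, 10.19 and 9.76 after tamoxifen, against 12.70 in vehicle. Every tamoxifen array was lower, by -1.50, -2.51 and -2.94, and the other probe set gave -1.27, -2.42 and -2.89. Lpl was lowest on the array where Apoc2 was highest. Angptl4, an inhibitor of that lipase, differed by 1.74, 1.14 and 0.61, and its other probe set, below the median on all arrays, by 0.12, -0.31 and -0.13. Pon1, a paraoxonase carried on high-density lipoprotein, differed by -0.57, -1.22 and -0.48 and was above the median in vehicle alone. Lmf1, needed for lipase folding, differed by -0.55, -0.46 and -0.46, and its other probe set, below the median on all arrays, by -0.09, -0.11 and 0.21. Beside Lpl, Angptl4 and Pon1 no gene of this list was past 2-fold.

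Of 17 genes of lipoprotein assembly and fat absorption, 1, 2 and 3 were at least 2-fold lower and 0 were higher, with medians of -0.14, -0.09 and 0.07. Cd36, a fatty acid transporter, was at 9.84, 9.05 and 8.35 after tamoxifen, against 10.00 in vehicle, and was lowest at 4.5 days by all 3 of its probe sets, which gave -2.58 to -1.51 there. The fatty acid binding protein gene Fabp2 differed by -0.16, -1.18 and -1.20. The sterol transporter gene Npc1l1 differed by -1.69, -1.48 and -1.20, from a vehicle level of 5.84 that was the only value above the array median. Plin2, which coats lipid droplets, differed by 0.61, 0.95 and 0.91. Mttp, the transfer protein that loads lipid onto APOB, was at 4.74, 4.76 and 4.57 after tamoxifen, against 4.42 in vehicle. These values were below the median on all arrays, and of the 2 probe sets of Mttp only the brighter is given here.

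Of 16 lipoprotein receptor genes 13 were read, with medians of -0.02, 0.00 and -0.24. Lrp8, a receptor for APOE, was past 2-fold higher, at 1.11 and 1.60 on the arrays at 2.5 and 4.5 days and -0.05 at 12 hours. The Lrp8 levels in vehicle and at 12 hours, 5.28 and 5.23, were below the array median. Its other probe sets, below the median on all arrays, gave 0.24 and 0.64 at 2.5 days and 0.57 and 1.07 at 4.5 days. The high-density lipoprotein receptor gene Scarb1 differed by 0.49, 0.58 and 0.71. The receptor chaperone gene Lrpap1 differed by -0.72, -0.75 and -0.85, and all 4 of its probe sets lay below vehicle at each time. Sort1, a sorting receptor for APOB in liver, differed by -0.58, -0.69 and -0.73, but its other probe sets, above the median on all arrays, lay between -0.14 and 0.20.

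Of 16 genes on the list of further apolipoproteins 6 were expressed, with list medians of -0.05, -0.08 and -0.10. The list also holds Apobr, a receptor gene, which was below the median on all arrays. Saa3, an acute-phase apolipoprotein, was at 9.16, 9.32 and 7.92 after tamoxifen, against 7.20 in vehicle, and was past 2-fold higher at 12 hours and 2.5 days, by 1.96 and 2.12. Clu, the apolipoprotein J or clusterin gene, was near the top of the scale, at 14.16, 14.14 and 14.08 after tamoxifen, against 13.54 in vehicle. Its 4 probe sets gave 0.62 or more at 12 hours, where 1 of them was past 2-fold, 0.60 to 0.99 at 2.5 days and 0.54 to 0.99 at 4.5 days. Apoo and Apool, whose products lie in mitochondria, differed by -0.76, -0.51 and -0.50 and by -0.14, -0.02 and -0.06. Apom differed by -0.01, 0.02 and -0.03 and Apol6 by 0.09, -0.34 and -0.38.

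**Figure D4:**
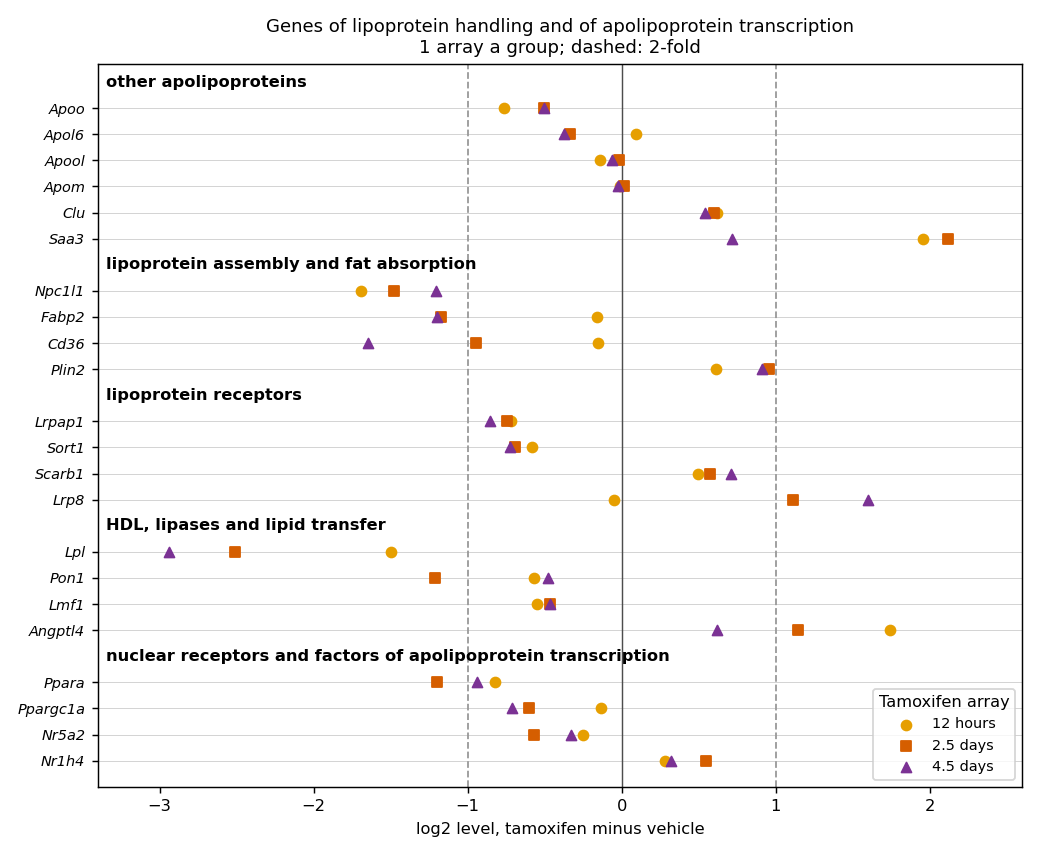
Difference in log2 level from vehicle (horizontal axis) of genes named from 5 lists, at 12 hours (circles), 2.5 days (squares) and 4.5 days (triangles), with dashed lines at 2-fold. Lpl lies furthest to the left, at -2.94 at 4.5 days, and Saa3 furthest to the right, at 2.12 at 2.5 days.

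Transcription factors known to act on apolipoprotein genes showed smaller differences than Apoa1 and Apoa4. Of 15, 13 were read, and their medians were -0.16, -0.16 and -0.28. Hnf4a encodes a nuclear receptor that activates Apoa1, Apoa4, Apob and Apoc3 in liver and intestine. It was at 10.66, 10.74 and 10.74 after tamoxifen, against 10.60 in vehicle. Of the 4 probe sets of Hnf4a only the brightest is given here. Ppara, the fatty acid sensing receptor gene, differed by -0.82, -1.20 and -0.94. Its 3 probe sets were each above the median on 1 array alone and ranged from -1.20 to -0.48 at 2.5 days and from -1.40 to -0.59 at 4.5 days. The coactivator gene Ppargc1a differed by -0.13, -0.60 and -0.71, and its other 4 probe sets, above the median on all arrays, lay between -1.03 and -0.58 at 12 hours. On the later arrays its 5 probe sets lay between -1.03 and -0.42. Nr5a2 and the bile acid receptor gene Nr1h4 differed by -0.57 and 0.55 at 2.5 days. The other 3 probe sets of Nr5a2 were below the median on all arrays and lay between -0.54 and 0.00 there.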

How the data were processed

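The authors deposited log2 expression for 45101 probe sets on 4 Affymetrix arrays. RMA and Partek are named by the submitters' processing notes, with no version in the sources used here. No label states the log base, which was inferred from the range of 2.06 to 14.85. RMA corrects background, equalizes distributions between arrays and summarizes probes, so a shift shared by most genes is not seen and differences of dim or very bright genes are compressed. Per the labels' protocols, RNA of 3 mice was pooled and amplified before labelling, and the number of arrays limits precision.

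Control probe sets (64) were left out. By the platform annotation 34958 probe sets had 1 gene symbol, 932 several and 9211 none, and the last 2 kinds were not used. By gene ID, 34741 matched the current annotation. Differences of log2 values were computed with Python 3.11.15 and pandas 2.3.3, and the counting was tested on simulated data. The simulated noise was smaller than the robust SD of expressed genes against vehicle, 0.27, 0.35 and 0.39 by time. That run therefore checks the computation and not how the 2-fold rule performs on these arrays. The named genes were the 9 members, expressed genes of the list of further apolipoproteins, up to 4 genes of each other pathway list by largest difference, the brightest markers, and the 3 genes closest to each of the 2 members that differed most. Mttp, Hnf4a, Apoa5, Apoc4, flanking genes, several markers (Alb, Fga, Fgb, Lct, Cdx1, Cd68, C1qc, Adgre1, Chga) and the 5 promoter motifs were chosen after the data had been seen, and Apoc2's closest genes as well. The members and lists were chosen with earlier results of these data known. Alternatives changed the probe set, scaling, filter and fold threshold.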

Additional observations from a re-analysis of the deposited data

Results flagged for a closer look

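Cftr, the chloride channel gene of mucous neck cells, was named because it was among the 3 genes closest to Apoc2 without the 12-hour array. It lay on opposite sides of vehicle by 2-fold or more at different times, with differences of -1.14 at 12 hours, 1.15 at 2.5 days and 2.38 at 4.5 days, a span of 3.52. Its other probe set, below the array median on all arrays, gave -0.20, 0.02 and 0.12. The difference between the times was not tested.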

How the results depend on the processing

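All 10 member differences past 2-fold (4 each for Apoa1 and Apoa4, 2 for Apoc2) kept their direction and stayed past 2-fold with the mean of all probe sets, with the next brightest probe set where there was one, and with both recentrings. At 2.5 days Apoa1 ranged from -3.57 to -3.39 and Apoa4 from -3.34 to -3.03, and at 4.5 days Apoc2 from 2.38 to 2.56. Centring on the hybridisation controls shifted the median of expressed genes from 0.02 to 0.15 at 2.5 days and from -0.01 to 0.16 at 4.5 days. It brought Apoc2 past 2-fold at 2.5 days, at 1.04, so that 1 member was higher there. With it, 75.8% of the genes past 2-fold at 2.5 days and 75.5% at 4.5 days were higher, against 63.2% and 58.3% as deposited, and 87.9% were higher from 12 hours to 2.5 days, which was 79.7% as deposited. Centring on the median of expressed genes gave 56.1%, 56.6% and 71.1%. With a threshold of 1.5-fold, 3 in place of 2 members were lower in each comparison with vehicle. At that threshold 3 members were higher at 2.5 days and 2 at 4.5 days. In the steps, 1 was higher from 12 hours to 2.5 days and 2 in the next. The shares of all expressed genes past 1.5-fold are not given here, so nothing is read from these counts. With the filter at the 75th percentile, 76 genes in place of 122 were higher at 12 hours, 271 in place of 408 at 2.5 days, 188 in place of 315 in the step to 2.5 days and 14 in place of 30 in the step to 4.5 days. With the mean of all probe sets Lrp8 at 2.5 days, Angptl4 at 12 hours and 2.5 days and Ppara at 2.5 days were not past 2-fold. No paired analysis was possible because each group holds 1 array. Without replicates, vehicle taken at 2.5 days only and the spread between mice limit every value.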

Other observations

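Ttr, which encodes transthyretin, a carrier of thyroid hormone and of retinol that is also found on high-density lipoprotein, was in the hepatocyte list but did not share its low levels. It was at 10.98, 10.52 and 10.13 after tamoxifen, against 12.53 in vehicle, and all 4 probe sets were past 2-fold lower at each time. In the same list the haptoglobin gene Hp differed by -0.12, 0.29 and -1.44 and the arginase gene Arg1 by -2.38, 0.31 and -0.87. Gastric endocrine cells are another known source of Ttr, and the 8 genes of their list had medians of -0.10, -0.10 and -0.47. At 2.5 days 3 of the 8 lay above vehicle and 5 below it. The somatostatin gene Sst differed by -0.15, -0.89 and -1.92 and the ghrelin gene Ghrl by -0.11, -0.57 and -1.36. The gastrin gene Gast differed by -0.04, -0.13 and -0.57 and the chromogranin gene Chga by -0.07, 0.29 and -0.36. The 5 adipocyte genes read had medians of 0.18, -0.27 and -0.21. Among them Adipoq, which encodes adiponectin, differed by -0.76, -1.07 and -1.05. Fabp4, also of adipocytes, differed by 0.18, -0.27 and -0.14 and Cidec by 0.46, 0.26 and 0.30.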
